A study of Mus musculus with 22 samples.

Results

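Blood of SCA3 mice was compared between 17.5 and 9 months of age, by genotype and age in the sample labels, which took 10 of the 22 blood samples of the series. Each age had 5 samples, from mice of 39 to 42 weeks and of 74 to 77 weeks, and all 9850 genes of the count table were tested. The 8 SCA3 mice were hemizygous males of the MJD84.2 line, which carries the full human mutant ATXN3 gene under its own promoter in every tissue, and they received no drug but went through motor tests. Mice 7 and 8 have samples at both ages in the series. Mice 2, 3 and 5 have a sample there only at 9 months and mice 1, 4 and 6 only at 17.5 months. In the paper 2 transgenic mice died before the study ended, and the labels do not name them. Mice 2, 3 and 5, with no sample at 17.5 months, may include them, and the part of survival was not tested. The other 12 samples came from wild-type C57BL/6 males at the same ages and were used here as the age effect without the transgene. Whole blood was drawn from the tail, globin messenger RNA was removed, and polyadenylated RNA was sequenced without keeping the strand.

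Spinocerebellar ataxia type 3 is caused by an expanded CAG repeat in ATXN3, whose product ataxin-3 removes ubiquitin from other proteins. The disease is one of the brain, and blood serves as an accessible tissue in which expression can be followed over time. Whole blood RNA is a mixture of reticulocytes, platelets, lymphocytes and myeloid cells, and with age the naive T cells of mice are known to become fewer while memory and cytotoxic cells become more frequent. In such a mixture, fewer cells of a type and less RNA per cell cannot be told apart.

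Total counts ran from 21922250 to 40831751 per SCA3 sample and did not differ between the ages beyond the spread (two-sided exact permutation test, p = 0.452). The RNA integrity number (RIN), a scale on which degraded RNA scores low, was 7.2, 7.1, 6.6 and 6.1 at 9 months in mice 2, 3, 5 and 7, with no value in the labels for mouse 8. At 17.5 months it was 7.2, 6.6, 5.3, 5.2 and 6.2 in mice 1, 4, 6, 7 and 8, and the means of 6.75 and 6.1 were within the spread (exact permutation test, p = 0.262). The mean GC content of the counted genes was 49.6 to 50.4% at 9 months and 48.8 to 49.5% at 17.5 months, so the ages did not overlap (exact permutation test, p = 0.00794, the smallest that 5 against 5 samples allow). In wild-type mice it was 49.5 to 50.5% and 49.3 to 50.9%. Because GC content moved with age in the SCA3 samples, each gene's counts were corrected for GC content, and gene values are given as GC-corrected log2 CPM (log2 counts scaled to library size) per mouse.

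With this correction 1087 of 9850 genes (11%) were called between the ages by edgeR's quasi-likelihood test, where p-values were adjusted after Benjamini and Hochberg across the table and the threshold was 0.05. Of these, 476 genes (4.83% of those tested) were higher at 17.5 months and 611 (6.20%) were lower. Their log2 fold changes were moderate, with a median size of 0.51, and in 241 of the genes called higher and 196 of those called lower the 5 values at one age lay entirely above the 5 at the other. Over all genes, called or not, the ages did not overlap for 359 genes that were higher (3.64%) and 258 that were lower (2.62%). The count of 1087 calls rested on single libraries. It was 2170 without the 9-month sample of mouse 2, and 255, 457, 552 and 740 without those of mice 3, 5, 7 and 8. Without the 17.5-month samples of mice 1, 4, 6, 7 and 8 it was 1353, 588, 547, 385 and 663. Without the 17.5-month samples of mice 6 and 7 together, the libraries with an RIN under 6, edgeR called 1 gene, Emp1, and the next adjusted p was 0.0787. The 1087 genes then had the direction they had before, with a median size of 0.45, but this was computed on 8 of the 10 samples that had chosen them.

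The change followed transcript length. Among the 10% of genes with the shortest transcripts (median 992 bases) the median log2 fold change was 0.30, and edgeR called 195 higher and 2 lower. Among the 10% with the longest (median 8036 bases) the median was -0.24, with 2 called higher and 189 lower. Genes called higher had a median length of 1470 bases and genes called lower one of 5126.5 bases, against 3096.5 over all genes. Across the 9806 genes with a known length, which are not independent replicates, Spearman's rank correlation of the log2 fold change with length was -0.49 in SCA3 mice and -0.18 in wild-type mice, and with GC content it was 0.0039 in SCA3 mice. The value for GC content is set by the GC correction itself. Without that correction it was -0.59, and the rank correlation with length was then -0.23.

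**Figure D1:**
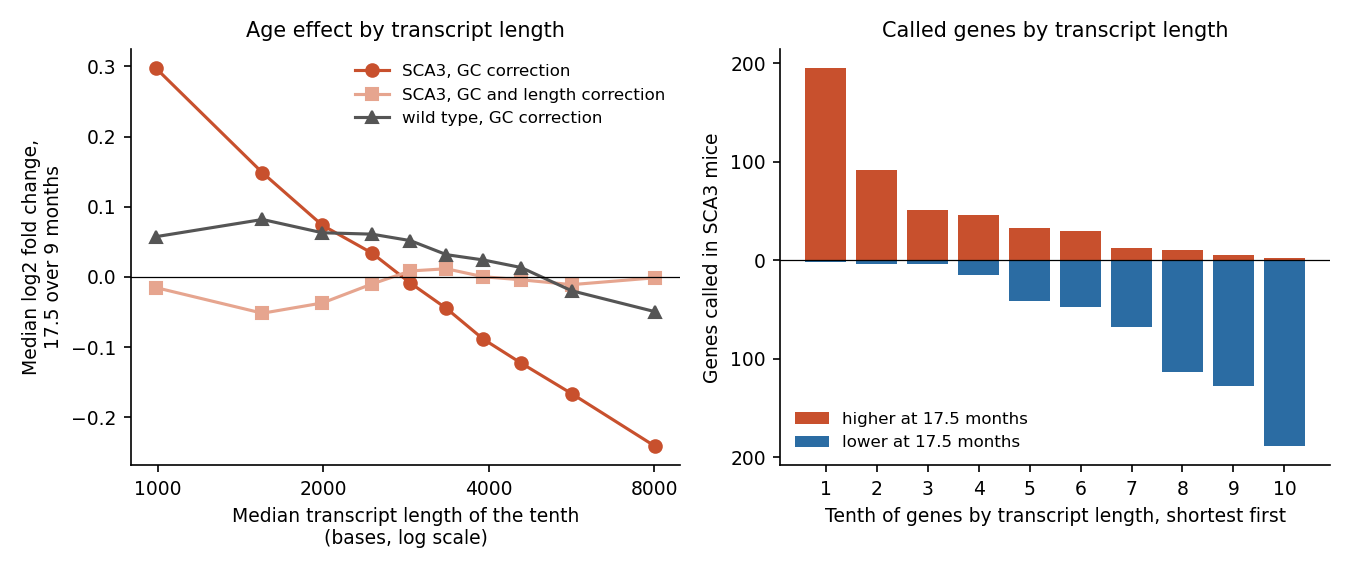
Left, median log2 fold change (17.5 over 9 months) of 10 equal groups of genes ordered by transcript length (bases, log axis), in SCA3 mice with GC correction (circles) or with GC and length correction (squares) and in wild-type mice (triangles). Right, genes called higher (up) or lower (down) in SCA3 mice in each group; calls run from 195 higher and 2 lower among the shortest to 2 higher and 189 lower among the longest.

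To follow this by sample, each gene was taken relative to its mean over all 22 samples, and the median of the shortest 10% of genes was subtracted from that of the longest 10%. This test was chosen after the data were seen. The log2 difference was -0.16, 0.59, 0.37, 0.32 and 0.30 at 9 months in mice 2, 3, 5, 7 and 8, and -0.07, -0.18, -0.41, -0.38 and -0.23 at 17.5 months in mice 1, 4, 6, 7 and 8. All samples at 17.5 months were below 0 and lower than those of mice 3, 5, 7 and 8 at 9 months, whereas mouse 2 at 9 months lay among the older samples (exact permutation test, p = 0.0159). The lowest values belonged to mice 6 and 7 at 17.5 months, which also had the lowest RIN. At 9 months mouse 7 with an RIN of 6.1 was at 0.32 and mouse 2 with 7.2 at -0.16. Whether this difference moves with RIN was not tested. Wild-type samples ran from -0.23 to 0.35 at 9 months and from -0.22 to 0.08 at 17.5 months. Library names in the labels are numbered apart for the samples of each age, so age and this library set cannot be told apart. RIN overlapped between the ages, but with so few samples it cannot be told apart from age either.

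**Figure D2:**
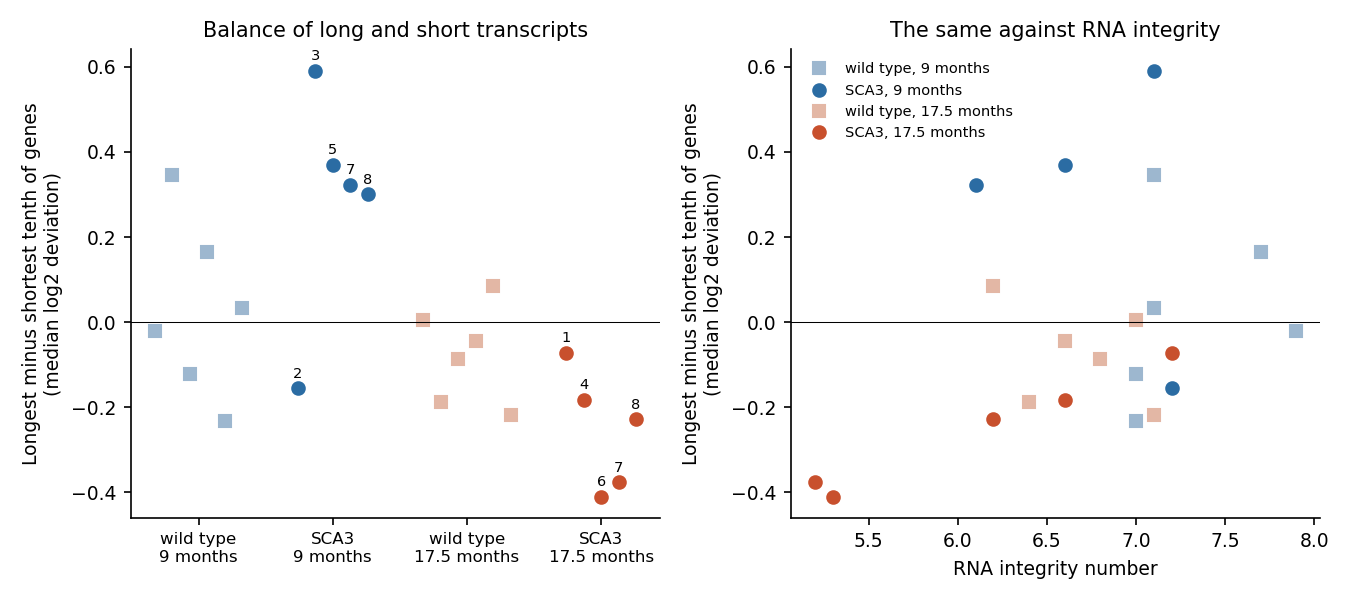
Left, median log2 deviation of the longest 10% of genes minus that of the shortest 10% in each blood sample, by genotype and age; numbers name the SCA3 mice. Right, the same values against RIN for the 21 samples with an RIN; the SCA3 samples of mice 6 and 7 at 17.5 months, with an RIN of 5.3 and 5.2, have the lowest values, -0.41 and -0.38.

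When transcript length was corrected for along with GC content, the test left 227 genes (2.30%), of which 85 (0.863%) were higher and 142 (1.44%) lower, and 195 of them were among the 1087 genes, all in the same direction. The rank correlation with length was then 0.04, and the genes called higher and lower had median lengths of 3312 and 4126 bases. With RIN as a covariate, for which mouse 8 at 9 months had to be dropped along with its missing value, the 21 remaining samples left 81 genes, 24 higher and 57 lower, with a rank correlation of -0.45 with length. Leaving out that sample alone, with no RIN term, left 740 genes. Length correction and RIN together, on the same 21 samples, left 4 genes, Emp1, Glg1, Lars2 and Mrpl1.

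**Figure D3:**
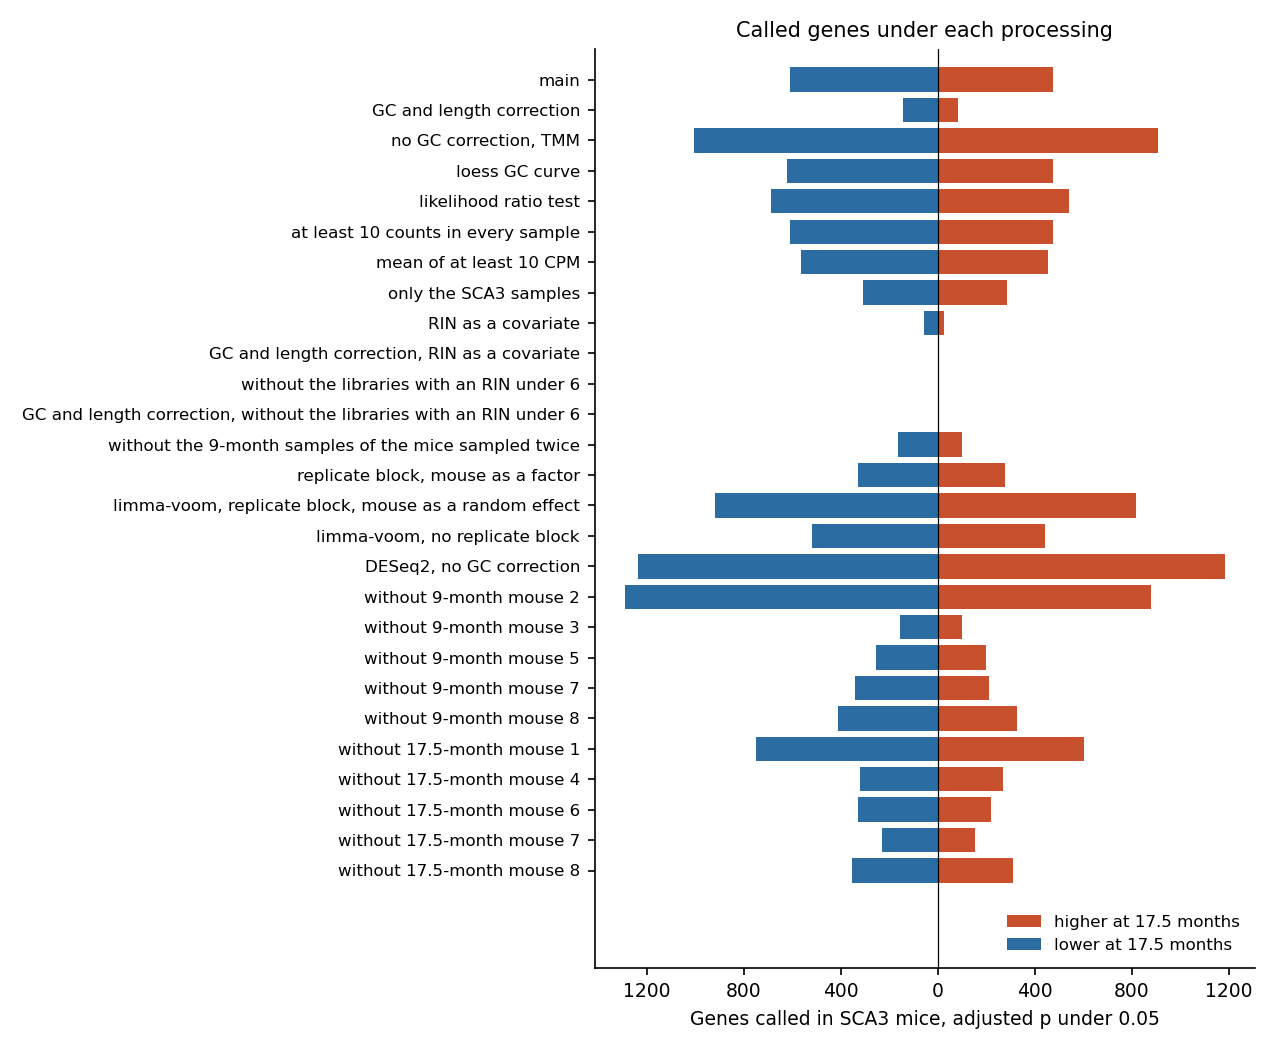
Genes called between 17.5 and 9 months in SCA3 mice (adjusted p under 0.05), higher to the right and lower to the left, with GC correction (main) and under each other processing. Bars too short to see stand for 4 genes with length correction and RIN, and for 1 gene, Emp1, without the 2 libraries with an RIN under 6.

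The largest rise was that of Emp1, which encodes epithelial membrane protein 1, a small membrane protein with 4 membrane-spanning stretches (chromosome 6, 135362545 to 135383173, GRCm38). At 9 months its values were 1.87, 2.12, 1.89, 1.72 and 2.39 in mice 2, 3, 5, 7 and 8, and at 17.5 months 3.52, 4.30, 4.21, 4.95 and 4.62 in mice 1, 4, 6, 7 and 8. Every older sample was thus at least 1 log2 unit above every younger one. Emp1 was picked among genes whose ages did not overlap, which fixed the direction within the mice sampled at both ages. The rise there was 3.23 in mouse 7 and 2.23 in mouse 8. The log2 fold change was 2.39 (SE 0.31, edgeR adjusted p = 0.00155). Emp1 was called under all 16 other processings and in all 10 fits that left out 1 library, with log2 fold changes from 2.21 to 2.74. It rose in wild-type blood as well, with a log2 fold change of 2.08 (edgeR adjusted p = 0.00368).

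Tm4sf1, a surface protein known from endothelial and tumour cells, was at 2.98, 2.40, 3.09, 2.46 and 2.18 at 9 months in mice 2, 3, 5, 7 and 8 and at 4.02, 4.32, 3.21, 4.50 and 4.58 at 17.5 months in mice 1, 4, 6, 7 and 8. The ages were separated by a narrow gap between mouse 5 and mouse 6, and the log2 fold change was 1.54 (SE 0.40, edgeR adjusted p = 0.0209). Without the 9-month sample of mouse 3 or the 17.5-month sample of mouse 7 the adjusted p was 0.063 or 0.055. Tspan17, a tetraspanin that helps the metalloprotease ADAM10 reach the cell surface, ran from 5.18 to 6.24 and from 6.45 to 7.34, a log2 fold change of 1.12 (SE 0.21, edgeR adjusted p = 0.00886). It was called in all 10 fits that left out a library and with length correction.

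Gsto1, a glutathione transferase of the omega class, ran from 4.48 to 5.84 at 9 months and from 5.89 to 6.89 at 17.5 months (log2 fold change 1.25, SE 0.27, edgeR adjusted p = 0.0113, 0.0382 with length correction). Serpinb6a, an intracellular serine protease inhibitor, rose by 1.23 on the log2 scale and 1110046J04Rik by 1.59. These genes overlap on opposite strands on chromosome 13, and since the strand was not kept their reads cannot be told apart. With length correction 1110046J04Rik stayed called (adjusted p = 0.0201) and Serpinb6a did not (adjusted p = 0.0539). Gng11, a G protein gamma subunit abundant in platelets, ran from 10.94 to 11.96 and from 12.20 to 13.07 (log2 fold change 1.17, edgeR adjusted p = 0.0203), and its adjusted p was 0.0539 with length correction. Zxda (1.20) and Csprs (1.09), which have near-identical gene copies so that their counts are uncertain, and Ndufa5 (1.05), a subunit of respiratory complex I, completed the 10 largest rises, and these 3 genes stayed called with length correction.

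**Figure D4:**
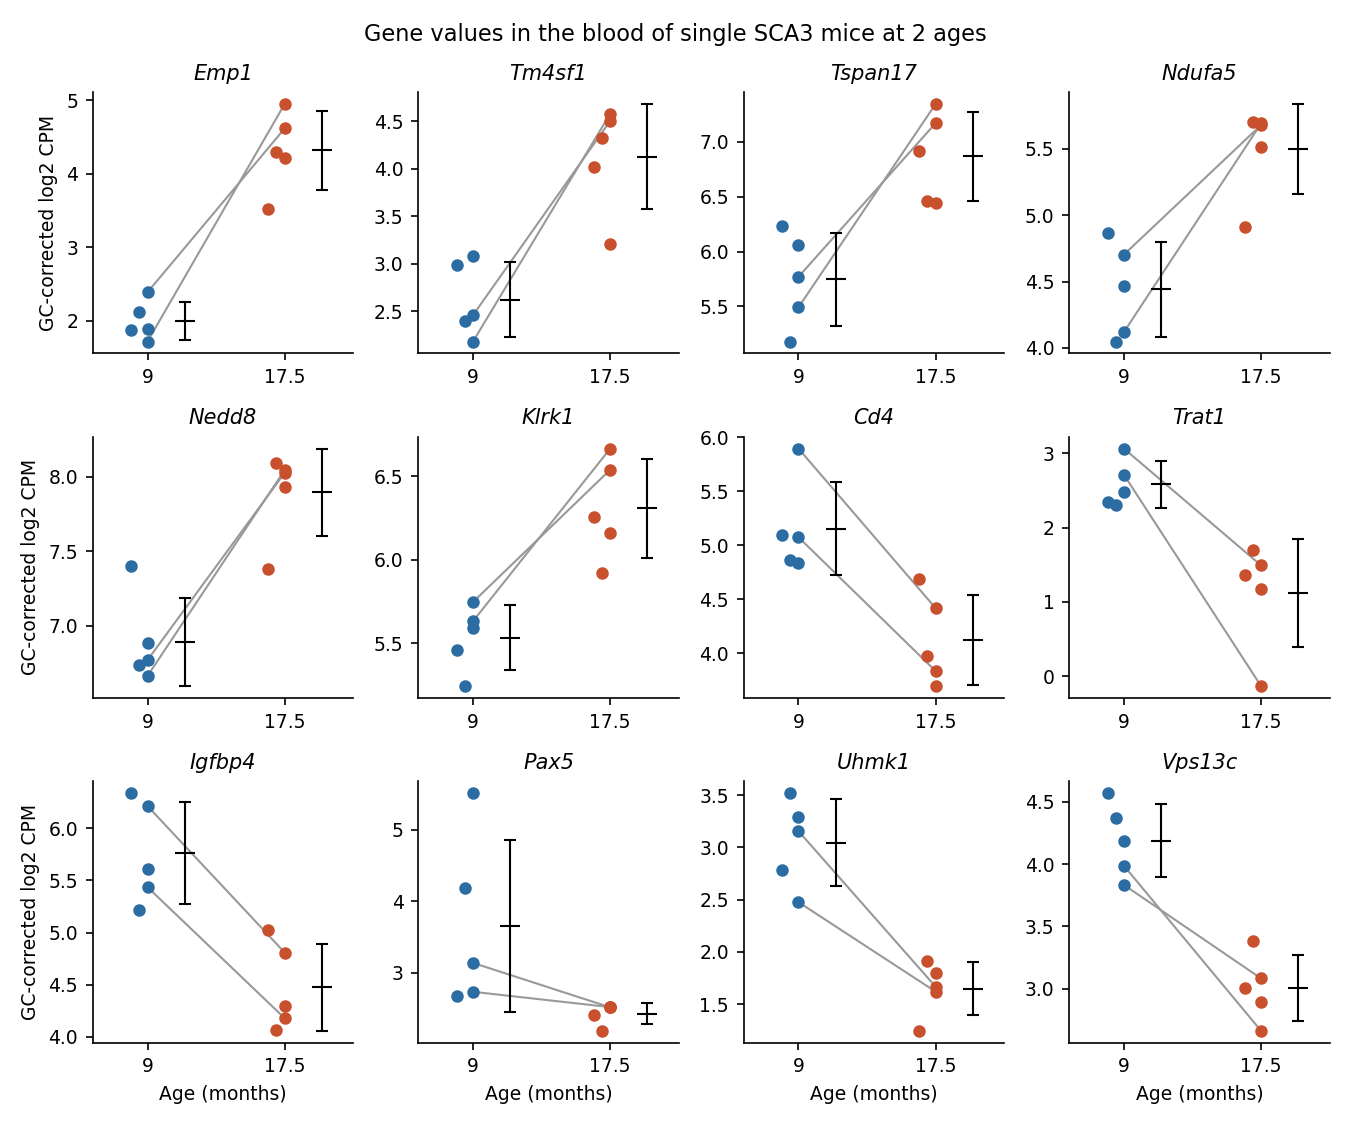
GC-corrected log2 CPM of 12 genes in single SCA3 mice at 9 months (blue, n = 5) and 17.5 months (orange, n = 5); grey lines join the samples of mice 7 and 8, and bars give the mean ± SD. The ages do not overlap except for Nedd8, and the lowest Trat1 value, -0.13, is that of mouse 8 at 17.5 months.

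Epb41, which encodes protein 4.1 of the red cell membrane skeleton, fell most among genes whose ages did not overlap (chromosome 4, 131923413 to 132075321, GRCm38). Its values were 11.13, 12.16, 12.27, 10.71 and 12.54 at 9 months in mice 2, 3, 5, 7 and 8 and 10.50, 9.89, 9.23, 9.73 and 10.05 at 17.5 months in mice 1, 4, 6, 7 and 8. Mouse 7 at 9 months and mouse 1 at 17.5 months lay closest together, and the log2 fold change was -1.98 (SE 0.52, edgeR adjusted p = 0.0221). The call was lost with length correction (adjusted p = 0.0649) and, at an adjusted p of 0.053 to 0.060, without mouse 3 or 5 at 9 months or mouse 6 or 7 at 17.5 months.

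Vps13c, a very large lipid transfer protein at contacts of the endoplasmic reticulum with late endosomes, fell more evenly. It ran from 3.83 to 4.57 at 9 months and from 2.66 to 3.39 at 17.5 months, with a log2 fold change of -1.19 (SE 0.19, edgeR adjusted p = 0.00655), and it stayed called with length correction although its transcript of 11527 bases is among the longest. Ly75 (DEC-205), an endocytic receptor of dendritic cells and lymphocytes, was at 1.91, 3.26, 2.86, 3.27 and 3.34 in mice 2, 3, 5, 7 and 8 at 9 months and between 1.32 and 1.80 at 17.5 months. Mouse 2 was the lowest of the young group and close to the old one, and the log2 fold change was -1.43 (SE 0.25, edgeR adjusted p = 0.0066, 0.0173 with length correction).

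Uhmk1, a nuclear kinase that phosphorylates splicing factors and stathmin, fell by 1.43 on the log2 scale. N4bp2, a partner of the ubiquitin ligase Nedd4, fell by 1.26 and Ccdc186, a protein needed to form dense-core vesicles, by 1.24. Each was called in all 10 fits that left out a library and with length correction (edgeR adjusted p = 0.0173, 0.0253 and 0.0173). The other large falls were those of the lymphocyte genes Pax5, Trat1 and Igfbp4, described below, and of Gm14085 (-1.30), a gene model that was called in only 3 of the fits that left out a library and whose adjusted p was 0.0829 with length correction.

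Of 20 T cell markers measured, 13 had a negative log2 fold change and 2 were called, both lower (10%, against 6.20% of all genes called lower). The median log2 fold change was -0.20, or -0.24 with length correction, against -0.01 over all genes. In wild-type mice the median of these markers was -0.66, a larger fall, with 3 called. Cd4, the coreceptor of helper T cells, was at 5.09, 4.86, 4.84, 5.07 and 5.90 in mice 2, 3, 5, 7 and 8 at 9 months and at 4.68, 3.97, 3.69, 3.83 and 4.42 in mice 1, 4, 6, 7 and 8 at 17.5 months. Every older sample was lower than every younger one, and the log2 fold change was -1.04 (SE 0.23, edgeR adjusted p = 0.0137). Trat1, an adaptor that stabilises the T cell receptor complex, ran from 2.31 to 3.06 and from -0.13 to 1.71 (log2 fold change -1.39, SE 0.31, edgeR adjusted p = 0.0138). Both stayed called with length correction and in all 10 fits that left out a library. With RIN as a covariate their edgeR adjusted p was 0.091 and 0.0668, and the median of the T cell markers was 0.06, of the opposite sign. That fit also lacked the 9-month sample of mouse 8, which had the highest summed T cell markers of its age, 2377 CPM. How much of the change came from the RIN term and how much from the missing sample was not tested.

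All 12 genes of the naive T cell list were lower, with a median of -0.39, or -0.22 with length correction. Only Igfbp4 passed the test (8.33% of the list, against 6.20% of all genes called lower). It encodes an insulin-like growth factor binding protein high in naive CD4 T cells. It ran from 5.22 to 6.34 at 9 months and from 4.07 to 5.02 at 17.5 months (log2 fold change -1.30, SE 0.34, edgeR adjusted p = 0.0216). Its adjusted p was 0.0556 with length correction and 0.052 to 0.062 without mouse 4, 6 or 7 at 17.5 months. In wild-type mice the median of the naive T cell genes was -0.26, with 1 called. The summed level of the T cell markers was 1191 to 2377 CPM at 9 months and 1270 to 1714 CPM at 17.5 months, so the ages overlapped there, and that of the naive T cell genes was 2212 to 3371 and 2139 to 3205 CPM.

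Genes of natural killer and cytotoxic T cells mostly had higher values at 17.5 months. Of 21 measured, 19 had a positive log2 fold change and 4 were called, all higher (19% against 4.83% of all genes), with a median of 0.49. In wild-type mice the median of these genes was -0.07 with none called. Klrk1, which encodes the activating receptor NKG2D, was at 5.46, 5.24, 5.59, 5.75 and 5.63 in mice 2, 3, 5, 7 and 8 at 9 months and at 6.25, 5.92, 6.16, 6.54 and 6.66 in mice 1, 4, 6, 7 and 8 at 17.5 months. The ages did not overlap, and the log2 fold change was 0.79 (SE 0.19, edgeR adjusted p = 0.0162). Klrk1 stayed called with length correction (adjusted p = 0.0436) but not without mouse 3 at 9 months (adjusted p = 0.056).

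The other genes called in this group were Gzmm, a granzyme of killer cell granules (log2 fold change 1.27, edgeR adjusted p = 0.0178), Klrc1, which encodes the inhibitory receptor NKG2A (0.91, edgeR adjusted p = 0.0376), and Cd160, a receptor of natural killer and cytotoxic T cells (0.56, edgeR adjusted p = 0.0417). For these 3 genes single samples of the ages overlapped. With length correction their adjusted p was 0.0708, 0.141 and 0.091, and the median of the group was 0.19. Klrc1 and Cd160 were called in 2 of the 10 fits that left out a library, and Gzmm in 8. The summed level of the group was 587.5 to 1273 CPM at 9 months and 909.4 to 1513 CPM at 17.5 months.

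Among 18 B cell markers only Pax5, the transcription factor that maintains B cell identity, was called (5.56%, against 6.20% of all genes called lower). Its values were 2.68, 4.19, 5.51, 3.14 and 2.74 in mice 2, 3, 5, 7 and 8 at 9 months and 2.41, 2.19, 2.52, 2.52 and 2.52 in mice 1, 4, 6, 7 and 8 at 17.5 months. The difference came mainly from mice 3 and 5, since the other 3 young samples lay within 1 log2 unit of the old ones. The log2 fold change was -1.67 (SE 0.39, edgeR adjusted p = 0.0153), and the adjusted p was 0.0534 with length correction. The median of the 18 markers was 0.02, or -0.05 with length correction, and their summed level overlapped at 3753 to 9062 and 4766 to 8900 CPM. In wild-type mice, where Pax5 ran from 2.35 to 3.11 and from 2.88 to 3.53, the B cell median was 0.62 with no marker called.

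No gene was called among 17 monocyte, 18 neutrophil and 10 eosinophil and basophil markers, whose medians were -0.0035, 0.02 and 0.11. Mice differed widely within an age, as the summed neutrophil markers ran from 3825 to 16350 CPM at 9 months and from 6871 to 18680 CPM at 17.5 months. Of 24 platelet and megakaryocyte markers, 18 had a positive log2 fold change and only Gng11 was called (4.17%, against 4.83% of all genes called higher). Their median was 0.23, or 0.10 with length correction. The summed platelet level was 13470 to 23330 CPM at 9 months and 14100 to 30010 CPM at 17.5 months.

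Red cell genes mostly had lower values. Of 22 genes of the red cell membrane and skeleton 17 had a negative log2 fold change, with a median of -0.32, and 2 were called, Epb41 and Add1, the alpha subunit of adducin that caps actin in the membrane skeleton. Add1 ran from 7.59 to 8.28 at 9 months and from 7.51 to 7.78 at 17.5 months, with mouse 2 low in the young group (log2 fold change -0.49, SE 0.12, edgeR adjusted p = 0.0172). Of 29 erythroid regulators 3 were called, all lower, with a median of -0.27. They were Foxo3, a transcription factor of erythroid maturation (-0.87, edgeR adjusted p = 0.0252), Bpgm, which makes the haemoglobin regulator 2,3-bisphosphoglycerate (-0.96, edgeR adjusted p = 0.0437), and Ube2h, a ubiquitin-conjugating enzyme of reticulocytes (-0.46, edgeR adjusted p = 0.0497).

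The 5 calls were 9.8% of the 51 red cell genes, against 6.20% of all genes called lower. None of the 5 was called with length correction, and the medians of both lists in wild-type mice were alike, at -0.32 and -0.30. Foxo3 moved by -0.99 within mouse 7 and by 0.43 within mouse 8. No gene of heme synthesis and iron uptake was called among 22, and their median was -0.06. The summed level of the membrane genes was 2883 to 8635 CPM at 9 months and 2687 to 4113 CPM at 17.5 months.

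Genes of ribosomes, of the respiratory chain and of the proteasome have short transcripts. In 4 lists of such genes 38 of 258 were called higher (14.7%, against 4.83% of all genes), which is 7.98% of all rises. Of 74 mitochondrial ribosomal protein genes, which build the ribosome of the mitochondrion, 12 were called higher and none lower, with a median of 0.17. Of 74 genes of the respiratory chain and ATP synthase 13 were called higher and none lower, with a median of 0.23. Of 73 cytosolic ribosomal protein genes 7 were called higher and none lower (median 0.30), and of 37 proteasome genes 6 were called higher and 1 lower (median 0.11). The median transcript lengths of the 4 lists were 1368.5, 936.5, 937 and 1581 bases. With length correction the calls fell to 2 higher and 0 lower, 2 and 2, 1 and 2, and 0 and 0, and the medians to 0.0048, -0.06, 0.02 and -0.05.

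**Figure D5:**
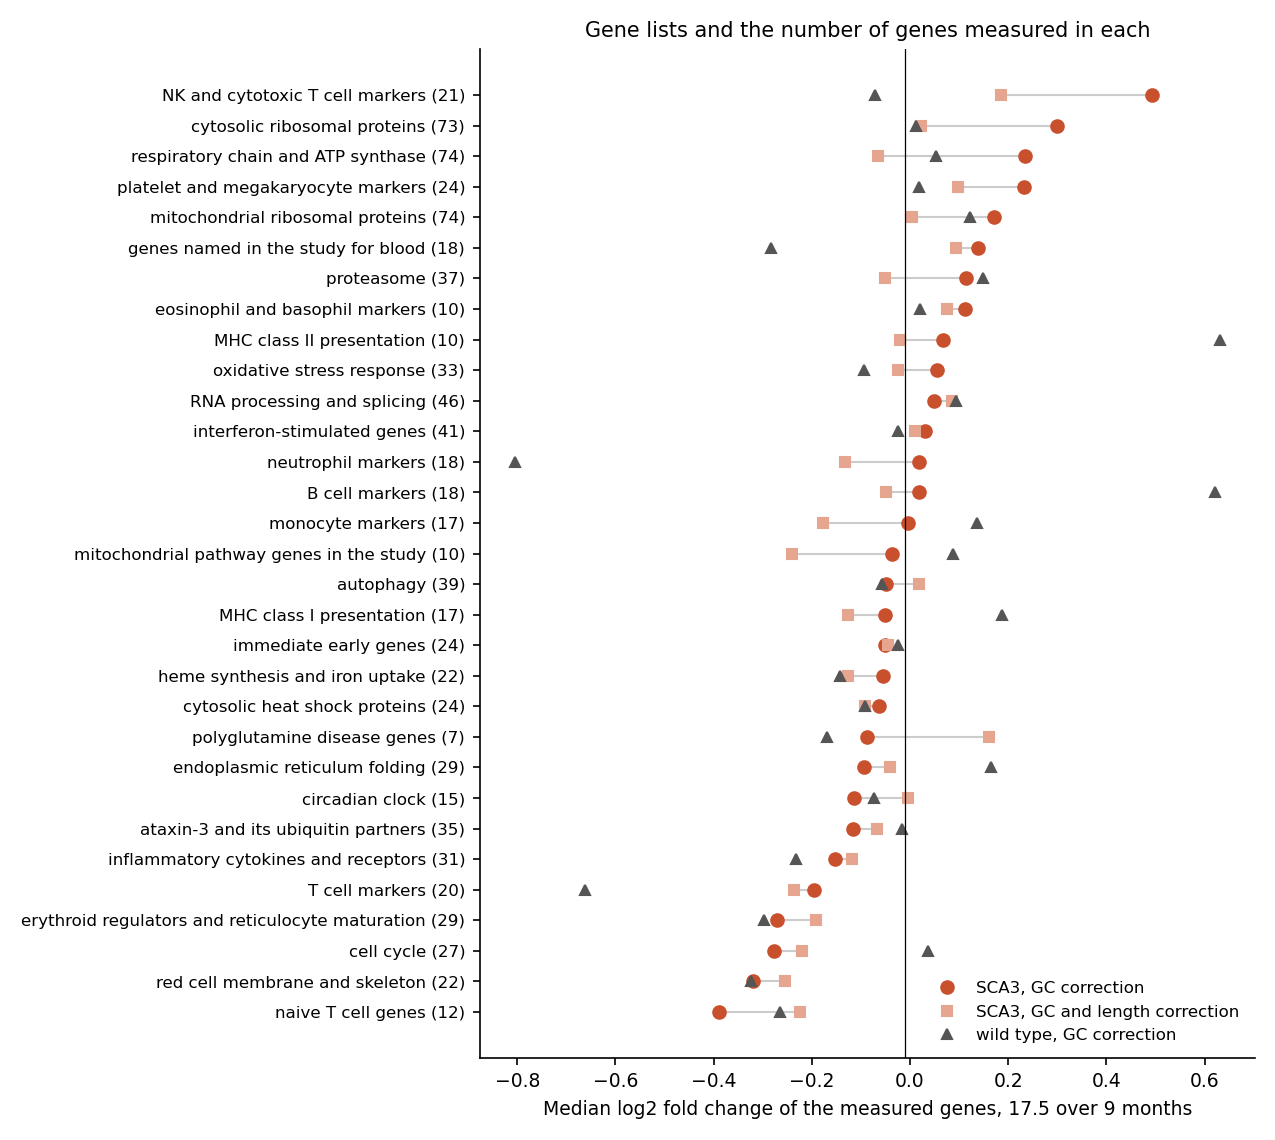
Median log2 fold change (17.5 over 9 months) of the measured genes of 31 lists, with their number in brackets, in SCA3 mice with GC correction (circles) or GC and length correction (squares) and in wild-type mice (triangles); the line marks the median of all genes, -0.01. With length correction the ribosomal, respiratory chain and proteasome lists move to between -0.06 and 0.02.

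Mrpl1, a protein of the large mitochondrial ribosomal subunit, has a longer transcript of 3556 bases and showed the steadiest rise of these groups. It was at 4.20, 4.02, 4.10, 4.07 and 4.25 in mice 2, 3, 5, 7 and 8 at 9 months and at 4.58, 4.61, 4.60, 4.72 and 4.60 in mice 1, 4, 6, 7 and 8 at 17.5 months. The ages did not overlap, and the log2 fold change of 0.49 (SE 0.08, edgeR adjusted p = 0.00643) was 0.51 with length correction (adjusted p = 0.00814). Mrpl47 behaved alike, with 0.63 and, corrected for length, 0.67 (edgeR adjusted p = 0.0105 and 0.0211), but its exons overlap Ndufb5 on the other strand, so that reads of the 2 genes cannot be told apart. Mrpl42, with a transcript of 666 bases, went from 0.55 (edgeR adjusted p = 0.00655) to 0.12 (adjusted p = 0.409), and Mrpl41 from 0.69 to 0.31.

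Ndufa5, a complex I subunit, was at 4.86, 4.05, 4.47, 4.12 and 4.70 in mice 2, 3, 5, 7 and 8 at 9 months and at 4.91, 5.70, 5.52, 5.69 and 5.68 in mice 1, 4, 6, 7 and 8 at 17.5 months. Mouse 1 was the lowest of the old group, just above mouse 2. The log2 fold change was 1.05 (SE 0.21, edgeR adjusted p = 0.00893), and 0.72 with length correction (adjusted p = 0.0232). Atp5j, a coupling factor of ATP synthase, rose by 0.98 and stayed called with length correction (adjusted p = 0.0496). Cox5a (0.88), a subunit of cytochrome c oxidase, Atp5j2 (0.64) and Ndufa4 (0.59) were not called with it. Of the 10 mitochondrial pathway genes in the study, a list chosen in these samples, Ndufa5, Atp5j and Cox5a were higher and Ogdh, the 2-oxoglutarate dehydrogenase of the citric acid cycle, was lower (-0.61, edgeR adjusted p = 0.0234, 0.0624 with length correction).

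Of the cytosolic ribosomal proteins Rps6, a small-subunit protein phosphorylated downstream of mTOR, rose by 0.60 (edgeR adjusted p = 0.00886) and stayed called with length correction at 0.28 (adjusted p = 0.0463). Rpl22l1 (0.68), Rpl10 (0.43) and Rpl27a (0.54) did not. Reads of ribosomal protein genes can also match processed pseudogenes, so their counts are uncertain. In the proteasome the core subunits Psma4 (0.47), Psmb7 (0.48) and Psmb6 (0.47) rose, and Psmd1, a large scaffold of the regulatory particle, fell by 0.54 (edgeR adjusted p = 0.0296); none of them was called with length correction.

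The endogenous Atxn3 gene was at 5.33 to 5.69 at 9 months and at 5.28 to 5.47 at 17.5 months, with overlap between the ages. Its log2 fold change was -0.22 (SE 0.08, edgeR adjusted p = 0.0612) and did not pass the test, and it was 0.16 without GC correction (adjusted p = 0.295). The human transgene was not counted separately in the table. Of the 35 genes for ataxin-3 and its ubiquitin partners 2 were called higher (5.71%, against 4.83% of all genes). Another 4 were called lower (11.4%, against 6.20% of all genes), and the median was -0.12.

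Nedd8, a ubiquitin-like protein that activates cullin ligases and binds ataxin-3, was at 7.40, 6.73, 6.88, 6.66 and 6.77 in mice 2, 3, 5, 7 and 8 at 9 months and at 7.38, 8.09, 7.93, 8.04 and 8.03 in mice 1, 4, 6, 7 and 8 at 17.5 months. Mouse 2 and mouse 1 met at the same level while the other samples were about 1 log2 unit apart. The log2 fold change was 1.00 (SE 0.18, edgeR adjusted p = 0.00682), and 0.63 with length correction (adjusted p = 0.0201). Exons of Nedd8 overlap Gmpr2 on the other strand, as those of Atp5j do with Gabpa, Cd160 with Pdzk1 and Psmb7 with Nek6, and the counts of these genes may hold reads of their partners. Crebbp, the acetyltransferase CBP that ataxin-3 binds, ran from 4.24 to 5.27 and from 3.91 to 4.15 (log2 fold change -0.97, SE 0.20, edgeR adjusted p = 0.00932), and it stayed called with length correction (adjusted p = 0.035). The ubiquitin chain elongation factor Ube4b (-0.47) and the ubiquitin-activating enzyme Uba1 (-0.72) fell, but not with length correction (adjusted p = 0.116 and 0.0965).

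Of 7 polyglutamine disease genes only Atn1, the atrophin-1 gene of dentatorubral-pallidoluysian atrophy, was called, with a log2 fold change of -0.55 (edgeR adjusted p = 0.0239, 0.151 with length correction). Of 39 autophagy genes 4 were called (10.3%, near the share of all genes called), all lower, with a median of -0.05. Nbr1, a receptor that delivers ubiquitinated cargo to autophagosomes, ran from 6.08 to 6.39 and from 5.80 to 5.92 without overlap (log2 fold change -0.42, SE 0.08, edgeR adjusted p = 0.00886, 0.0333 with length correction). Pik3c3 (-0.48) and Pik3r4 (-0.40), the lipid kinase Vps34 and its regulatory subunit, and Ambra1 (-0.26), an activator of that complex, were not called with length correction.

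Of 53 protein folding genes 3 were called, all lower (5.66%, against 6.20% of all genes called lower). Of 24 cytosolic heat shock genes 1 was called, the chaperone Bag6 (-0.38, edgeR adjusted p = 0.0394), and of 29 genes of folding in the endoplasmic reticulum 2 were called, the oxidase Ero1l (-0.38, edgeR adjusted p = 0.0355) and the chaperone Hyou1 (-0.32, edgeR adjusted p = 0.0482). None of these 3 was called with length correction (adjusted p = 0.174, 0.103 and 0.261). Of 33 oxidative stress genes 2 were called higher and 1 lower, with a median of 0.06. Prdx1, a peroxidase of hydrogen peroxide, ran from 6.90 to 7.62 and from 7.72 to 8.09 (log2 fold change 0.70, SE 0.15, edgeR adjusted p = 0.0105, 0.0345 with length correction). Gpx4, which reduces lipid peroxides, rose by 0.84 (edgeR adjusted p = 0.0251) and Txnrd1, the cytosolic thioredoxin reductase, fell by 0.41 (edgeR adjusted p = 0.0259), and neither was called with length correction (adjusted p = 0.104 and 0.0806).

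Among 27 cell cycle genes 3 were called, all lower, with a median of -0.28 in SCA3 mice and 0.04 in wild-type mice. Mcm4 and Mcm3, subunits of the replicative helicase, had log2 fold changes of -0.68 and -0.73 (edgeR adjusted p = 0.0138 and 0.0148), and both stayed called with length correction (adjusted p = 0.0275 and 0.0344). Mcm4 was at 4.54, 5.28, 5.22, 5.26 and 5.33 in mice 2, 3, 5, 7 and 8 at 9 months and at 4.83, 4.32, 4.34, 4.42 and 4.40 in mice 1, 4, 6, 7 and 8 at 17.5 months. Mouse 2 of the young group and mouse 1 of the old group lay on the other group's side. Cdk6, a G1 cyclin-dependent kinase, fell by 0.53, and its adjusted p was 0.27 with length correction.

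In 4 lists of immune signalling 9 of 99 genes were called (9.09%), a share near that of all genes. Of 31 inflammatory cytokines and receptors, Il6ra (-0.69) and Il6st (-0.73), the 2 chains of the interleukin-6 receptor, and the NF-kappaB subunit Nfkb1 (-0.48) fell, and the cytokine Tnf rose (0.80, edgeR adjusted p = 0.0453). Il6ra and Il6st did not overlap between the ages (edgeR adjusted p = 0.017 and 0.0181). With length correction their adjusted p was 0.113 and 0.115, and no gene of the list was called. Of 41 interferon-stimulated genes Ifi35 (0.48) and Ifi47 (0.47) were called, both higher, with a median of 0.03. Of 17 genes of MHC class I presentation the peptide transporter Tap2 (-0.43) and the peptide-trimming Erap1 (-0.44) fell and the proteasome activator Psme2 (0.39) rose, and of 10 MHC class II genes none was called. None of the interferon and MHC genes was called with length correction.

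Of 24 immediate early genes Jund, an AP-1 subunit, was called (-0.83, edgeR adjusted p = 0.037), and without mouse 5 at 9 months its log2 fold change was -0.52 (adjusted p = 0.14). Of 15 clock genes the repressor Per1 (-0.50) and the kinase Csnk1d (-0.37) fell (edgeR adjusted p = 0.0178 for both). Of 46 genes of RNA processing and splicing the kinase Clk2 (0.52), Hnrnpa1 (0.67) and Srsf2 (0.60) rose, and Prpf8, the core protein of the spliceosome, fell by 0.85 (edgeR adjusted p = 0.0153). With length correction none of these 3 lists held a called gene.

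Of 18 genes that the study names for blood, a list chosen on these samples and including reference genes, only Lars2 was called (5.56%, against 4.83% of all genes called higher). Lars2, the mitochondrial leucyl-tRNA synthetase (chromosome 9, 123366927 to 123462666, GRCm38), was at 10.87, 10.71 and 10.90 in mice 3, 5 and 7, at 11 in mouse 2 and at 12.40 in mouse 8 at 9 months, and at 13.19, 11.86, 12.47, 12.32 and 12.09 in mice 1, 4, 6, 7 and 8 at 17.5 months. The young sample of mouse 8 lay within the old group, so that Lars2 rose by 1.43 within mouse 7 and moved by -0.31 within mouse 8. The log2 fold change was 1.13 (SE 0.32, edgeR adjusted p = 0.0294) and 1.29 with length correction (adjusted p = 0.0365). With RIN as a covariate it was 1.65 (edgeR adjusted p = 0.0405), but that fit lacked the young sample of mouse 8, which has no RIN. The larger value is thus no check on RIN alone. Lars2 was called in 4 of the 10 fits that left out a library. In wild-type mice the log2 fold change was 0.23 (adjusted p = 0.79).

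In wild-type blood 53 genes (0.538%) were called between the same ages. Of these, 17 were also called in SCA3 blood, all in the same direction, which is 32.08% of the wild-type and 1.564% of the SCA3 calls. They included Emp1 and Csprs, which rose, and Cd4, Trat1, Igfbp4 and Gm14085, which fell. For Cd4 the log2 fold changes were -1.04 in SCA3 and -0.97 in wild-type mice, for Trat1 -1.39 and -1.46, and for Igfbp4 -1.30 and -1.42. Of the 1087 SCA3 calls 838 (77.09%) had the same sign in wild-type mice, where their median size was 0.12 against 0.51. These genes were chosen by their SCA3 values, which favours large sizes there, so the sizes cannot be compared as like measures. The share with the same sign over all genes was not computed. The numbers of samples differ, with 6 wild-type samples at each age. Wild-type mice 10, 11, 13, 14 and 15 were sampled at both ages, which the main fit did not use. The wild-type count moved with the processing as well. With mouse as a factor edgeR called 174 wild-type and 608 SCA3 genes, and limma with mouse as a random effect called 331 and 1736. With RIN as a covariate edgeR called 3 and 81.

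The difference between the age effects, tested directly for each gene, was called for no gene (0%) by edgeR, with 1472 genes at an unadjusted p under 0.05, and the likelihood ratio test also called 0. DESeq2 without GC correction called 542, and edgeR called 393 without the 9-month sample of mouse 2. The smallest p-values were those of Btrc, a ubiquitin ligase subunit that targets beta-catenin, Specc1l, a cytoskeletal protein, Hcst, the adaptor DAP10 of NKG2D, Ubl5, a ubiquitin-like protein of splicing, and Nedd8. Their differences in log2 fold change, SCA3 minus wild type, were -0.90, -0.72, 0.80, 0.97 and 1.03, each with an edgeR adjusted p of 0.217. Btrc had a log2 fold change of -0.69 in SCA3 mice (edgeR adjusted p = 0.0124, 0.0211 with length correction) and 0.21 in wild-type mice (adjusted p = 0.549). Klrk1, with 0.79 and -0.09, had an adjusted p of 0.22 for the difference, and by edgeR over all samples the age effect of no single gene was shown to differ between the genotypes.

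Within the 2 mice sampled at both ages, which are also part of the fit, direction is no independent check. For the 20 genes with the largest changes it was fixed in both mice by their choice among genes whose ages did not overlap. Of the 84 called genes named by the rule, which include these 20, 84 moved in the fitted direction in mouse 7 and 81 in mouse 8, the exceptions in mouse 8 being Lars2, Foxo3 and Jund. Of the 85 called genes named here, 31 were called in each of the 10 fits that left out 1 library, and the other 54 lost the call in at least 1 of them while keeping their direction, at adjusted p-values of up to 0.138. Most losses came without mouse 3 at 9 months (50 genes) or mouse 7 at 17.5 months (45 genes). Glg1, a Golgi glycoprotein named after its values were seen because it was 1 of the 4 genes called with both length correction and RIN, had a log2 fold change of -1.02 (SE 0.16, edgeR adjusted p = 0.00643) and was called in all 10 of these fits.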

How the data were processed

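Blood RNA of 22 samples was sequenced by the authors from globin-depleted, polyadenylated RNA. Per the labels and the paper, reads were trimmed (Cutadapt 1.10), aligned to GRCm38 with STAR 2.3.0e and counted per RefSeq gene with HTSeq 0.6.1, unstranded. The deposited values are raw counts for 9850 genes averaging at least 4 CPM, and all 22 columns were used (0 left out). GC content and length of the longest protein-coding transcript came from GENCODE M21 for 9806 genes, and the 44 others took the median.

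In each sample log2 counts of genes with a mean of at least 50 counts were regressed on GC content (0.5 quantile, natural spline with 5 knots, quantreg 6.1) and residuals quantile normalized, after the CQN method, which was rewritten. These offsets entered edgeR 4.0.16, with 4 groups and the robust quasi-likelihood test in place of the authors' likelihood ratio test, and Benjamini-Hochberg adjustment over all genes. Single values per sample were compared by two-sided exact permutation tests. The code was tested on simulated data. Other settings used limma 3.58.1 and DESeq2 1.42.0 in R 4.3.3; figures used Python 3.11.15 and matplotlib 3.10.9.

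Text genes are the 10 up and 10 down with the largest change among called genes whose ages did not overlap, up to 4 members with the smallest p in each of 31 lists, Atxn3 and the study's blood genes, and the 5 with the smallest p for the difference between age effects. Glg1 and Psmd1 fall outside this rule and were chosen with their values in view, and 1 gene of the study's list is not reported here. The genes, lists and samples were chosen with earlier results of these data known. Among the SCA3 mice, mouse numbers pair mice 7 and 8, whose 2 samples come from the same animal. The correlation of their deviations from the group means was 0.0399 and 0.0355, against -0.47 to 0.36 for other SCA3 pairs. Replicates differed far beyond counting error (a chi-square of 46.1 to 544.5 for each degree of freedom). Samples of a group were separate mice.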

Additional observations from a re-analysis of the deposited data

Results flagged for a closer look

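In 182 sets of 4 or more values, for the named genes and the measures of each sample at each age, 19 held a sample far from the rest by Dixon's criterion, where chance gives about 9.1 (1 in 20). At 9 months mouse 2, whose RIN of 7.2 was the highest known of its age, stood apart for 8 genes, each time toward the 17.5-month values. It was low for Add1 (7.59), Mcm4 (4.54), Mcm3 (3.90), Tap2 (6.22), Hyou1 (5.13) and Prpf8 (6.27) and high for Gpx4 (7.04) and Atp5j2 (6.88). Mouse 8 at 9 months was low for 1110046J04Rik (1.26) and high for Lars2 (12.40) and Cd4 (5.90).

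At 17.5 months mouse 1, whose RIN of 7.2 was the highest of its age, was low for Ndufa5 (4.91) and Nedd8 (7.38) and high for Mcm4 (4.83) and Pik3c3 (5.15), each time toward the 9-month values. Mouse 8 was low for Trat1 (-0.13), mouse 6 for Bpgm (12.75) and mouse 7 for Rpl10 (4.50), and mouse 7 was high for Mrpl1 (4.72). All values are GC-corrected log2 CPM, and the part of RNA quality in them was not tested.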

How the results depend on the processing

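The 1087 calls in SCA3 blood became 227 with GC and length correction, 1912 without GC correction (TMM), 596 with only the SCA3 samples, 81 with RIN as a covariate (29.6% of them higher, against 43.8%), 266 without the 9-month samples of mice 7 and 8 and 2419 by DESeq2 without GC correction. Length correction and RIN together left 4. Leaving out the libraries with an RIN under 6 left 1, and 1 with length correction as well; the settings that join length with RIN or leave out these libraries were chosen after seeing the data. With mouse as a replicate block, which pairs the samples of mice 7 and 8, edgeR called 608 genes as a factor (316 of the 1087) and limma 1736 as a random effect. Without 1 replicate the count was 255 to 2170. The loess curve, the likelihood ratio test, both filters on low values and limma without the block gave 961 to 1228. For the difference between the age effects DESeq2 called 542 genes, and without 1 replicate edgeR called 0 to 393. The causes were not tested.

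Among the 87 named genes the sign turned for Atxn3 (0.16 by TMM and 0.16 by DESeq2), Hcst (-0.12 with length correction, -0.13 with length correction and RIN, -0.10 with length correction and without the low-RIN libraries) and Psmb6 (-0.0300 and -0.0473 in these last 2 settings). Of the 85 called, 30 were still called with length correction, 17 with RIN, 38 with the block as a factor and 1 without the low-RIN libraries. With 5 mice an age and 2 mice shared, age, RNA quality and library set cannot be told apart.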
